A study of Mus musculus with 2 samples.

Results

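The 36 genes described here are transcribed in response to type I interferon and were chosen by symbol from the 32574 genes counted in each library, and all 36 were present. They were followed in single cells of mouse adductor muscle, across cell classes gated by marker genes and between 2 genotypes. The groups were WT control littermates and Apoa1bp-/- mice, also labelled AIBP-KO, which lack the apolipoprotein A-I binding protein encoded by the gene listed as Naxe. All animals had femoral artery ligation, a surgery that makes the hindlimb ischemic, and muscle was taken on day 7. Surgery was done on 4 mice per genotype, each genotype is 1 library, and whether the cells of several mice were pooled is not given. No unoperated muscle is among the samples, so the levels below are those of ischemic muscle, and no level before surgery is known.

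Type I interferons signal through the receptor pair Ifnar1 and Ifnar2 and the kinases Jak1 and Tyk2, which activate Stat2. It joins Irf9 in a complex that binds the interferon-stimulated response element in the promoters of target genes. The targets include direct antiviral effectors, sensors of viral RNA and DNA, the factor Irf7 that amplifies interferon production, and the protease Usp18 that dampens the receptor. Nearly all nucleated cells carry the receptor, and myeloid cells are known for strong responses.

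The response element is shown first, since its motif can be searched without the counts. The motif searched was GAAA, any 2 bases and GAAA again, or on the other strand TTTC, any 2 bases and TTTC, in RefSeq promoter windows of build GRCm38.p6 that run from 250 bases before to 50 bases after a transcript start. Of the 36 members, 26 were matched by symbol in that table (30 windows). The motif stood in a window of 16 of the 26 (61.5%), against 1063 of 26999 other genes (3.94%). The narrower form, in which the first of the 2 middle bases is C (or, on the other strand, the second is G), stood in 9 of the 26 (34.6%) and in 205 other genes (0.759%). The 250 bases before the start of 6 members are printed 5′ to 3′ on the strand of the gene, in lower case with the motif in capitals. They are Isg15 (chr4:156200819-156201068, minus strand), Ifit1 (chr19:34640639-34640888, plus strand), Ifit3 (chr19:34583279-34583528, plus strand), Rsad2 (chr12:26456453-26456702, minus strand), Bst2 (chr8:71537473-71537722, minus strand) and Irf7 (chr7:141266425-141266674, minus strand). The first 5 hold from 1 to 3 copies, and Irf7 is shown because its window held none.
Isg15: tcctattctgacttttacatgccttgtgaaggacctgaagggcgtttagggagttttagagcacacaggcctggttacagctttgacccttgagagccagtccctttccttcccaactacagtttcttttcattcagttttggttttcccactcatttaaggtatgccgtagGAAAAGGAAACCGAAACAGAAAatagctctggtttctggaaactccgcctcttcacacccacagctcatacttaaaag
Ifit1: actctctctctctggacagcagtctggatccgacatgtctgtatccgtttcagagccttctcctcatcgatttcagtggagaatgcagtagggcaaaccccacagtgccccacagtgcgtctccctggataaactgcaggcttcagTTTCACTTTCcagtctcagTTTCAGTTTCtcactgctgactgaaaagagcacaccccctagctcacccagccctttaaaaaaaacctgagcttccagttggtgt
Ifit3: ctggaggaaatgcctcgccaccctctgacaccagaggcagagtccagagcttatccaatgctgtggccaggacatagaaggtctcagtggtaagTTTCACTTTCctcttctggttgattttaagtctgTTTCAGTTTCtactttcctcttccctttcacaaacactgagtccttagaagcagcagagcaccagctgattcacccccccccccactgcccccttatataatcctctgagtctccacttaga
Rsad2: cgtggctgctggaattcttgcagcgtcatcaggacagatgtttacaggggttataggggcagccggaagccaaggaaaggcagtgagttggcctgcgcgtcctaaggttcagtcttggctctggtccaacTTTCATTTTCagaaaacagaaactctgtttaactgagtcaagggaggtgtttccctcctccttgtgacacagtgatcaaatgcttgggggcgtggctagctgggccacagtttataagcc
Bst2: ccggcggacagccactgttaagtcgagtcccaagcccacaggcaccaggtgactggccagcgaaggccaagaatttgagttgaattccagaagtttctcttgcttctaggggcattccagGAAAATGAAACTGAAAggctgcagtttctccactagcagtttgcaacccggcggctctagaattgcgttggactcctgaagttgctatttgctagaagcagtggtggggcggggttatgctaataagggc
Irf7: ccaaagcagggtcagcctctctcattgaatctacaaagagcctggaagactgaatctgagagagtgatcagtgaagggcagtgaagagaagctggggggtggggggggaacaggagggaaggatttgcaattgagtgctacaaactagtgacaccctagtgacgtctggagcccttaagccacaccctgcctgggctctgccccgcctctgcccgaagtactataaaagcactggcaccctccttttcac
Isg15 held 3 overlapping copies in 1 run, Bst2 2 overlapping copies, and Ifit1 and Ifit3 each held 1 copy of TTTCACTTTC and 1 of TTTCAGTTTC. Rsad2 held 1 copy. Windows without a match also belonged to Xaf1, Ifi44, Ifi35, Oasl1, Oasl2, Cmpk2, Ms4a4c, Ifit2 and Irf9, which says only that these letters are not in the windows searched. The genotype ratios of members with and without the motif overlapped. In macrophage-gated cells the 16 with it had a median knockout over WT ratio of 1.72 (range 1.08 to 3.07) and the 9 without it a median of 1.91 (1.04 to 3.19). In endothelial-gated cells the medians were 1.68 (13 members) and 1.79 (9 members). Over the 12 classes the median was higher with the motif in 6 and without it in 6, as in pericyte and smooth muscle-gated cells with 2.60 and 1.69.

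The files held 14035 WT and 9392 knockout barcodes with 80954991 and 80444279 unique molecular identifiers (UMIs), and after filtering 13837 and 9164 cells remained, with medians of 4461 and 6825 UMIs. The libraries shared 43 barcode sequences. Naxe, the deleted gene, had 4061 UMIs in the WT library (50.3 CPM, counts scaled to a total of 1000000) and 0 of 80151365 in the knockout library, which allows up to 0.0374 CPM. Cells were gated into classes by lists of marker genes, and 12 classes held at least 50 cells in each library: endothelial, pericyte and smooth muscle, fibroblast, Schwann cell, satellite cell and myoblast (muscle progenitors), muscle fibre, macrophage, monocyte, neutrophil, dendritic cell, T cell and NK cell. In these classes 7 to 10 of the 10 markers were each found in at least 25% of cells in both libraries. They ranged from 57 WT Schwann cell- and monocyte-gated cells to 4815 WT macrophage-gated cells, and 2049 WT and 1252 knockout cells that met the markers of more than 1 lineage were left out. Levels are CPM within the class (UMIs of the gene over all UMIs of the class), with exact Poisson intervals, and ratios are knockout over WT with exact conditional intervals, both at 95%. With 1 library per genotype there is no test between genotypes, and the intervals cover counting error only, not the spread between mice.

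Summed over all kept cells, the members held 4724 CPM in WT cells and 6032 CPM in knockout cells. Macrophage-gated cells gave the largest share of these UMIs, 42.9% in WT cells and 36.0% in knockout cells, and fibroblast-gated cells gave 25.1% and 16.2%. Endothelial-gated cells gave 3.36% and 8.64%. Relative to their size, the classes that led were others: monocyte-gated cells had the highest summed level in both libraries (7341 and 14334 CPM), followed in the WT by endothelial-gated cells (6982 CPM) and in the knockout by neutrophil-gated cells (11429 CPM). Muscle fibre-gated cells were lowest in the WT (1079 CPM) and satellite cell and myoblast-gated cells in the knockout library (1617 CPM). Ifitm3, Ifi27l2a and Bst2 hold most of the sum in every class but knockout NK cell-gated cells, so single genes are described below.

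Gene by gene, 1 of the 6 immune classes led for 25 of the 36 members in WT cells and for 28 in knockout cells, and a non-immune class for 11 and 8. Neutrophil-gated cells led for 14 members in WT cells and 17 in knockout cells, 11 of them in both, monocyte-gated cells for 4 and 10 (3 in both), and endothelial-gated cells for 10 and 7 (7 in both). The same class led in both libraries for 22 of the 36 members. Neighbouring classes were often close: the Poisson intervals of the first and second class were separate for 10 members in WT cells and 18 in knockout cells, and for 6 members with the same leading class in both. The WT neutrophil- and monocyte-gated cells were few (58 and 57 cells, 96864 and 356471 UMIs). Among the 8 classes with at least 100 cells in each library, a comparison chosen after the data were seen that leaves out neutrophil-, monocyte-, NK cell- and Schwann cell-gated cells, endothelial-gated cells led for 18 members in WT cells and 21 in knockout cells, 18 of them in both. Among the 6 non-immune classes they led for 29 and 28, 26 of them in both. No member was led by satellite cell and myoblast-gated or muscle fibre-gated cells in either library. How many of all genes each class led is not given, so these counts are not read as particular to the members.

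**Figure D1:**
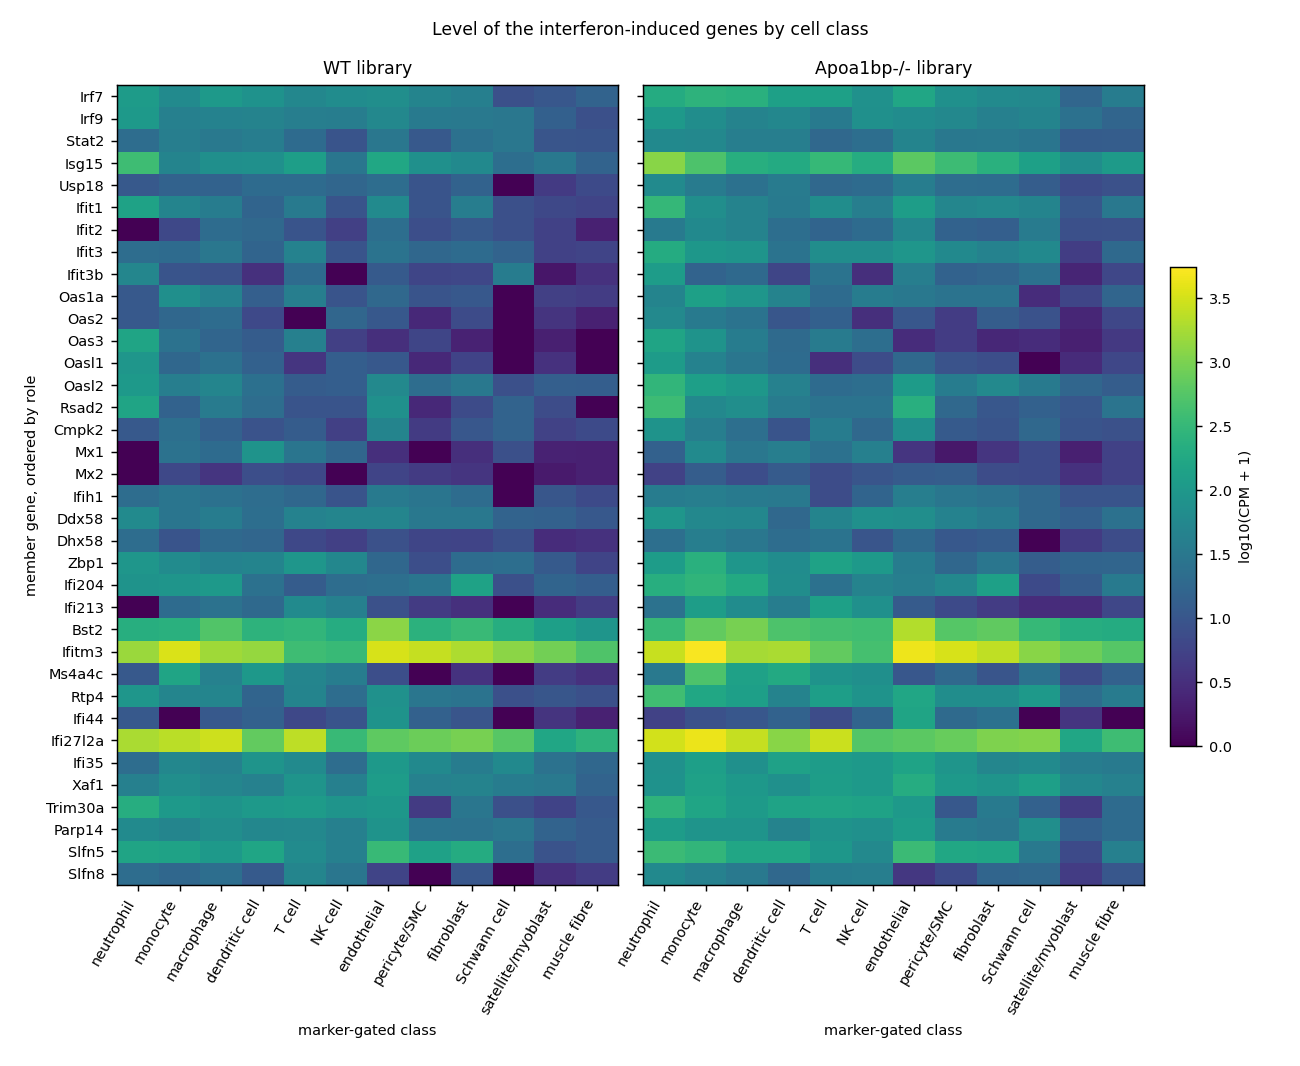
Level of each of the 36 members (rows, ordered by role) in the 12 marker-gated classes (columns) of the WT library (left) and the knockout library (right), as log10(CPM + 1). Ifitm3, Ifi27l2a and Bst2 form bright rows in every class, Ifi44 is bright only in the endothelial column, and the satellite cell and muscle fibre columns are the darkest.

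Among the genes of signalling and transcription, Irf7 was highest in WT neutrophil-gated cells at 114 CPM (56.7 to 203) and in knockout monocyte-gated cells at 268 CPM (241 to 297). Macrophage-gated cells came second in both libraries (106 and 237 CPM), within the interval of the leading class in WT cells and overlapping it in knockout cells. Irf9, the DNA-binding subunit of the Stat complex, was led by neutrophil-gated cells in both libraries, at 103 CPM (49.5 to 189.9) and 103 CPM (74.9 to 137). Stat2, its partner, stood at 39.3 CPM (21.5 to 65.9) in WT monocyte-gated and 59.3 CPM (38.8 to 86.9) in knockout neutrophil-gated cells, and the next class overlapped each. None of these 3 was tied to 1 class. Isg15, a ubiquitin-like protein joined to other proteins, was highest in neutrophil-gated cells of both libraries, at 382 CPM (269 to 527) and 1193 CPM (1093 to 1300.1). Endothelial-gated cells were second in both (169 and 647 CPM), with separate intervals. Usp18, the protease that removes Isg15, led in WT endothelial-gated cells at 20.7 CPM (14.7 to 28.4) and in knockout neutrophil-gated cells at 61.6 CPM (40.6 to 89.6).

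The Ifit proteins bind viral RNA, and Ifit1 was led by neutrophil-gated cells in both libraries (145 and 313 CPM), separate from endothelial-gated cells in second place (62.1 and 122 CPM). Ifit2 was highest in WT endothelial-gated (21.8 CPM) and knockout monocyte-gated cells (59.3 CPM). Ifit3 led in WT T cell-gated (44.8 CPM) and knockout neutrophil-gated cells (201 CPM), and Ifit3b in neutrophil-gated cells of both (51.6 and 119 CPM). Ifit3 and Ifit3b share 47.0% and 40.8% of their 60-base stretches with each other, so the division of UMIs between them is uncertain. Oas1a, Oas2 and Oas3 belong to the family that makes the 2′-5′ oligoadenylates which activate an RNase, and Oasl1 and Oasl2 are its relatives. Oas3 and Oasl1 were led by neutrophil-gated cells in both libraries, at 155 and 155 CPM and at 92.9 and 112 CPM. For these genes the next class was lower by at least 1.85-fold with separate intervals. Oas3 stood at only 2.18 and 2.01 CPM in endothelial-gated cells, from 4 and 8 UMIs. Oasl2 was also led by neutrophil-gated cells (103 and 294 CPM). Oas1a was highest in monocyte-gated cells of both libraries (72.9 and 134 CPM), and 52.9% of its stretches also occur in Oas1g. Oas2 led in WT macrophage-gated (19.9 CPM) and knockout neutrophil-gated cells (57.0 CPM).

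Rsad2, a radical enzyme that makes a chain-terminating nucleotide, was led by neutrophil-gated cells (155 and 367 CPM) with endothelial-gated cells second (74.1 and 229 CPM). Its neighbour on the chromosome, the nucleotide kinase Cmpk2, led in WT endothelial-gated (48.5 CPM) and knockout neutrophil-gated cells (82.1 CPM). Both thus had the same 2 classes in front in the knockout library. The antiviral GTPase Mx1 was highest in WT dendritic cell-gated cells at 82.9 CPM, 2.96 times the next class, and in knockout monocyte-gated cells at 62.3 CPM. Mx2 had at most 6.91 CPM in any WT class and 11.9 CPM in any knockout class and entered the genotype comparison in none.

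Of the sensors, the RNA helicase Ifih1 was led by endothelial-gated cells in both libraries (33.8 and 39.7 CPM), and its relative Ddx58 by neutrophil-gated cells (61.9 and 91.3 CPM). Dhx58, the third helicase of that family, led in WT neutrophil-gated (20.6 CPM) and knockout monocyte-gated cells (39.3 CPM). Intervals of the first and second class overlapped for each of the 3. Zbp1, a sensor of Z-form nucleic acids, led in WT neutrophil-gated (92.9 CPM) and knockout monocyte-gated cells (236 CPM). Ifi213 of the DNA-binding p200 family was highest in T cell-gated cells of both libraries (61.6 and 135 CPM). Ifi204, of the same family, was the only member led by fibroblast-gated cells, at 145 CPM in the WT against 108 CPM in macrophage-gated cells. In the knockout library monocyte-gated cells led for it at 285 CPM. A 25.7% share of the Ifi204 stretches occurs in other genes, mostly Ifi211.

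Among membrane proteins, Bst2, which tethers budding virus to the cell surface, was led by endothelial-gated cells in both libraries at 1249 and 2105 CPM, 2.36 and 2.20 times macrophage-gated cells (529.9 and 958 CPM). Bst2 is also a known antigen of plasmacytoid dendritic cells, and the 19 WT and 7 knockout cells of that gate, too few to be used as a class, held it at 4793 and 5249 CPM. Ifitm3, which blocks virus entry at membranes, was highest in monocyte-gated cells (3425 and 5137 CPM) and close to that in endothelial-gated cells (3337 and 4497 CPM). It was lowest in the lymphoid classes among immune cells, at 384 and 715 CPM in T cell-gated and 335 and 441 CPM in NK cell-gated cells. Ms4a4c, a tetraspan protein of myeloid and lymphoid cells, was led by monocyte-gated cells (151 and 510.2 CPM). In the 6 non-immune classes it was at most 7.08 CPM in WT cells and 23.7 CPM in knockout cells.

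Ifi44 was the 1 member restricted to a class by the rule used, which asked that the same class lead in both libraries and lie at least 3-fold above the next in both. Endothelial-gated cells held it at 84.5 CPM (71.7 to 98.8) in WT cells and 153 CPM (141 to 166) in knockout cells, 6.12 and 6.29 times the second class. The rule compares whole classes only. Macrophage-gated cells with 3 or more UMIs of the chemokine Cxcl10 held Ifi44 at 89.4 CPM in WT and 22.4 CPM in knockout cells. The plasmacytoid dendritic cell gate, too small to be used, held it at 79.9 and 28.4 CPM, from 5 and 1 UMIs. After each cell was thinned to 1000 UMIs, 7.67% (4.97 to 11.2%) of WT endothelial-gated cells and 14.4% (10.9 to 18.5%) of those of the knockout had an Ifi44 UMI, against 0.958% (0.697 to 1.28%) and 1.07% (0.723 to 1.52%) of macrophage-gated cells, whose median depths were 4318 and 6769 UMIs against 2508 and 7256 in endothelial-gated cells. Without thinning the shares were 22.8% and 53.3% of endothelial-gated and 3.72% and 4.99% of macrophage-gated cells. Endothelial-gated cells also led in both libraries for Slfn5 (336 and 365 CPM), a nuclear protein of the schlafen family, and for Xaf1 (118 and 209 CPM), a binding partner of the apoptosis inhibitor Xiap. They led too for Ifi35 (107 and 151 CPM) and for the ADP-ribosyltransferase Parp14 (82.8 and 118 CPM). Knockout neutrophil-gated cells were as high for Slfn5 (363 CPM) and Parp14 (116 CPM) within the intervals.

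Rtp4, a chaperone of membrane receptors, was led by neutrophil-gated cells (92.9 and 392.4 CPM), as was Trim30a, a ubiquitin ligase (217 and 272 CPM). Slfn8 was highest in WT T cell-gated (50.4 CPM) and knockout neutrophil-gated cells (59.3 CPM). Ifi27l2a was highest in WT macrophage-gated cells at 2864 CPM and in knockout monocyte-gated cells at 4419 CPM, and its lowest class was satellite cell and myoblast-gated cells (162 and 163 CPM). Bst2 ranged from 90.5 CPM in muscle fibre-gated to 1249 CPM in endothelial-gated WT cells.

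The second comparison was between the genotypes. A member entered it in a class where the mean of both libraries was at least 10 CPM and both together held at least 20 UMIs, and a member was counted as higher or lower where the ratio reached 1.5-fold, read on a log2 scale with 0.5 counts added to each library. In each of the 12 classes more members were higher than lower in the knockout library. Intervals of the ratio held 1 for 17 of 28 entered members in neutrophil- and 15 of 32 in dendritic cell-gated cells. In T cell-, NK cell- and monocyte-gated cells they did for 12 of 23, 11 of 21 and 8 of 34. Pericyte and smooth muscle-, muscle fibre- and Schwann cell-gated cells had 10 of 23, 5 of 18 and 4 of 12. Satellite cell and myoblast-, endothelial-, macrophage- and fibroblast-gated cells had 3 of 14, 5 of 29, 1 of 34 and 0 of 26. Over the 12 classes, 294 pairs of member and class entered, 195 were at least 1.5-fold higher and 2 at least 1.5-fold lower. Of the 294, 29 passed the filter through the knockout library alone, all of them higher, and of the 265 with at least 10 CPM in both libraries 166 were higher and 2 lower. Of all genes entered, 2.45% to 17.5% were higher and 8.19% to 26.6% lower, depending on the class. Of the 35 members that entered somewhere (Mx2 did not), 22 had a ratio above 1 in every class they entered. The share of all genes with such ratios is not given, and a member that entered few classes meets this more easily. Isg15 and Rtp4 were at least 1.5-fold higher in 12 of 12 classes (ratios 2.23 to 10.4 and 2.12 to 14.3), and Irf7 and Xaf1 in 11 of 12. Rsad2, Ifit3b, Ifi213 and Ms4a4c were at least 1.5-fold higher in each of the 5 or 6 classes they entered. At the other end, Ifitm3 passed that size in 2 of 12 classes (ratios 0.951 to 1.86), Ifi27l2a in 5 of 12, Ddx58 in 2 of 11 and Ifih1 in 1 of 6. The plot of log2 ratios by class shows this as rows.

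**Figure D2:**
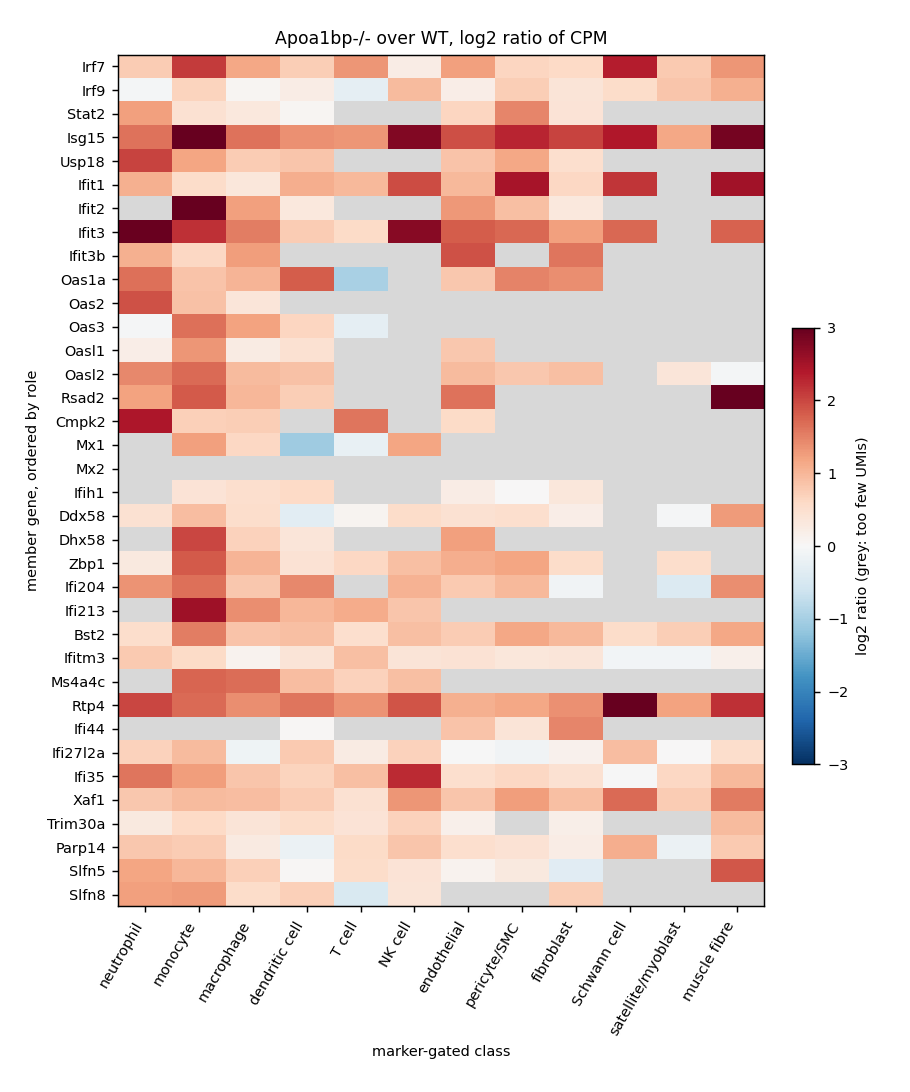
Log2 ratio of CPM, knockout over WT, for the 36 members (rows, ordered by role) in the 12 marker-gated classes (columns), red where the knockout library was higher, blue where the WT was higher and grey where the member did not enter; the colours end at 3 and -3. Isg15 and Rtp4 are red in all 12 classes, and the deepest blue cells are Mx1 in dendritic cell-gated and Oas1a in T cell-gated cells.

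Macrophage-gated cells, the largest class (4815 WT and 2883 knockout cells), had 34 members entered, and 22 of them were at least 1.5-fold higher in the knockout library and 0 at least 1.5-fold lower. Of all 7193 genes that entered in this class, 2.45% were higher and 8.19% lower by that size. The members' median log2 ratio was 0.79 against -0.13 over all genes entered, so the ratios of members stand on a background slightly below 0. Of the 36 members with no filter, 34 were above the WT, a count for which the share of all genes is not given. Of the 34, 33 had at least 10 CPM in both libraries, of which 21 were higher and 0 lower (2.3% and 6.82% of all genes filtered that way). Isg15 was at 73.4 CPM in WT cells and 226 CPM in knockout cells, a ratio of 3.07 (2.92 to 3.24). Ms4a4c was at 43.4 CPM in WT cells and 138 CPM in knockout cells, a ratio of 3.19 (2.97 to 3.41), the largest ratio of the class. Ifit3 was at 29.6 CPM in WT cells and 85.4 CPM in knockout cells, a ratio of 2.88 (2.65 to 3.14), and Irf7 at 106 CPM in WT cells and 237 CPM in knockout cells, a ratio of 2.24 (2.14 to 2.35). These 4 genes come from different roles, an effector, a membrane protein, an RNA binder and a transcription factor. Rtp4 was at 49.2 CPM in WT cells and 130.01 CPM in knockout cells, a ratio of 2.64 (2.47 to 2.83), Ifi213 at 24.9 CPM in WT cells and 65.3 CPM in knockout cells, a ratio of 2.63 (2.39 to 2.89) and Ifi204 at 108 CPM in WT cells and 189.5 CPM in knockout cells, a ratio of 1.76 (1.68 to 1.85). Bst2 was at 529.9 CPM in WT cells and 958 CPM in knockout cells, a ratio of 1.81 (1.77 to 1.85), and Ifit3b, among the least abundant, at 7.51 CPM in WT cells and 17.9 CPM in knockout cells, a ratio of 2.38 (2.00 to 2.85). Other abundant members had ratios near 1: Ifitm3 was at 1653 CPM in WT cells and 1778 CPM in knockout cells, a ratio of 1.08 (1.06 to 1.09), and Ifi27l2a, at 2864 CPM in WT cells and 2603 CPM in knockout cells, a ratio of 0.909 (0.899 to 0.919), was the 1 entered member below the WT. By role, 3 of 5 Oas genes, 3 of 4 Ifit genes and 4 of 6 sensors passed 1.5-fold, with ratios from 1.19 to 2.31, 1.27 to 2.88 and 1.41 to 2.63. Of the signalling genes only Irf7 did, beside Irf9 at a ratio of 1.04 and Stat2 at 1.245. Markers of other cell types also differed in this gate. The 10 neutrophil markers summed to 74.3 CPM in WT cells and 125 CPM in knockout cells (9 of 10 higher, 1 at 0 in the WT), and the 10 monocyte markers to 192 and 249.9 CPM (7 of 10 higher, 1 at 0 in the WT). The 10 fibroblast markers summed to 234 and 83.4 CPM (0 of 10 higher, none at 0), and the part of such RNA in the macrophage values was not tested.

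In endothelial-gated cells (378 WT and 368 knockout cells), 19 of 29 entered members were at least 1.5-fold higher and 0 lower, against 5.88% higher and 14.6% lower of 8283 genes. Their median log2 ratio was 0.81 (-0.13 over all genes), and 17 of the 27 with at least 10 CPM in both libraries were higher (4.95% of all genes). The markers of this gate do not separate blood from lymphatic endothelium. From here on a pair of levels is the WT and then the knockout value, followed by the ratio of knockout over WT and its interval. Isg15 was at 169 and 647 CPM (ratio 3.83, 3.40 to 4.32), and Ifit3b at 10.4 and 39.7 CPM (ratio 3.84, 2.38 to 6.54). Ifit3 was at 26.2 and 93.3 CPM (ratio 3.57, 2.63 to 4.92), Ifit2 at 21.8 and 54.3 CPM (ratio 2.49, 1.77 to 3.58) and Rsad2 at 74.1 and 229 CPM (ratio 3.08, 2.57 to 3.72). All 4 Ifit genes were at least 1.96-fold higher here, whereas Ifit1 had a ratio of 1.27 in macrophage-gated cells; this difference between classes was not tested. Irf7 was at 69.7 and 164 CPM (ratio 2.35, 1.94 to 2.86), Bst2 at 1249 and 2105 CPM (ratio 1.68, 1.61 to 1.77) and Xaf1 at 118 and 209 CPM (ratio 1.77, 1.52 to 2.07). Ifi44, restricted to this class by the 3-fold rule, had a ratio of 1.81 (1.52 to 2.18). Members that were high in this class without a ratio of 1.5 were Ifitm3 (3337 and 4497 CPM, ratio 1.35, 1.31 to 1.39), Slfn5 (336 and 365 CPM, ratio 1.08, 0.987 to 1.19) and Ifi27l2a (649 and 646 CPM, ratio 0.995, 0.928 to 1.07). In this gate the 10 macrophage markers summed to 1107 CPM in WT cells and 647 CPM in knockout cells (2 of 10 higher, none at 0). The 10 satellite cell and myoblast markers summed to 45.2 and 130 CPM (9 of 10 higher, 2 at 0 in the WT). The 10 Schwann cell markers summed to 15.8 and 49.5 CPM (7 of 10 higher, 3 and 1 at 0). The part of such RNA in the endothelial values was not tested.

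**Figure D3:**
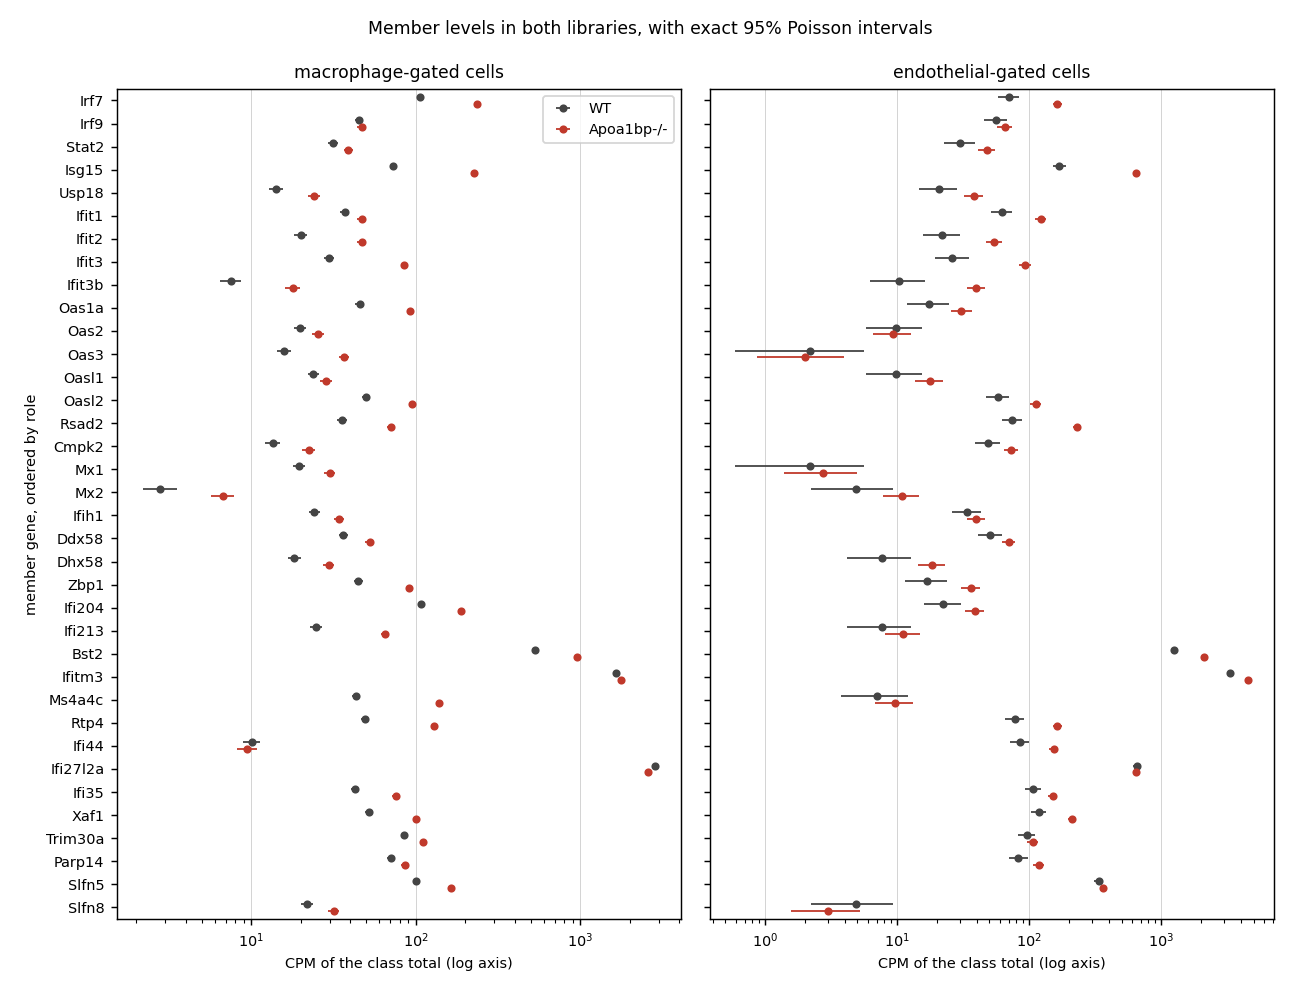
CPM of each of the 36 members in macrophage-gated cells (left) and endothelial-gated cells (right) on a log axis, WT library in dark grey and knockout library in red, with exact 95% Poisson intervals as bars. In macrophage-gated cells the red points lie to the right for 34 of 36 members, and in endothelial-gated cells for 32 of 36.

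Fibroblast-gated cells (3748 WT and 1287 knockout cells) had fewer members past the size: 12 of 26 entered were at least 1.5-fold higher and 0 lower, against 5.17% and 10.2% of 8340 genes, with a median log2 ratio of 0.53 against -0.09 over all genes. With at least 10 CPM in both libraries 8 of 22 were higher and 0 lower (4.52% and 8.83% of all genes). Isg15 was at 58.8 and 238 CPM (ratio 4.05, 3.80 to 4.32), a ratio as large as in endothelial-gated cells. Ifit3b was at 5.31 and 16.1 CPM (ratio 3.04, 2.43 to 3.82) and Ifi44 at 8.74 and 24.3 CPM (ratio 2.78, 2.33 to 3.33). Oas1a was at 9.79 and 25.6 CPM (ratio 2.62, 2.21 to 3.11), Rtp4 at 26.1 and 67.9 CPM (ratio 2.60, 2.34 to 2.88) and Ifit3 at 19.5 and 45.5 CPM (ratio 2.33, 2.06 to 2.64). Most of these started from under 30 CPM. Of the more abundant members, Bst2 was at 346 and 682 CPM (ratio 1.97, 1.91 to 2.03) and Ifitm3 at 1922 and 2472 CPM (ratio 1.29, 1.27 to 1.30). Ifi27l2a was at 963 and 1045 CPM (ratio 1.09, 1.06 to 1.11). Ifi204 and Slfn5 were the entered members below the WT, at 145 and 136 CPM (ratio 0.934, 0.883 to 0.989), and at 203 and 161 CPM (ratio 0.792, 0.753 to 0.833). None of the 4 sensors that entered reached 1.5-fold (ratios 0.934 to 1.46).

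The muscle lineage had low levels of most members. In satellite cell and myoblast-gated cells (951 WT and 1248 knockout cells) 14 members entered, and 7 were at least 1.5-fold higher and 0 lower, against 6.02% and 8.88% of 8086 genes, with a median log2 ratio of 0.58 (-0.04 over all genes). Of the 12 with at least 10 CPM in both libraries 5 were higher and 0 lower (5.3% and 7.39% of all genes). The median fell from 0.58 to 0.21 when the 5% of cells with the most UMIs were left out, where 7 of 15 were higher and 1 lower, and to 0.37 after each cell was thinned to 1000 UMIs. The 7 higher of the 14 were Isg15, Rtp4, Irf9, Irf7, Xaf1, Bst2 and Ifi35. Isg15 was at 30.2 and 67.5 CPM (ratio 2.23, 1.92 to 2.60), the smallest of its 12 ratios. Rtp4 was at 9.13 and 21.3 CPM (ratio 2.33, 1.77 to 3.10), Irf9 at 13.3 and 23.7 CPM (ratio 1.79, 1.42 to 2.28), Irf7 at 9.41 and 16.3 CPM (ratio 1.74, 1.31 to 2.32), Xaf1 at 31.5 and 53.2 CPM (ratio 1.69, 1.45 to 1.97) and Ifi35 at 24.7 and 38.0 CPM (ratio 1.54, 1.29 to 1.84). Bst2 was at 129.6 and 216 CPM (ratio 1.67, 1.55 to 1.80). Ifitm3 (886 and 842 CPM, ratio 0.951, 0.922 to 0.981) and Ifi27l2a (162 and 163 CPM, ratio 1.00, 0.933 to 1.08) were nearest to the WT among the abundant members.

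In muscle fibre-gated cells (259 and 336 cells) 15 of 18 entered members were higher and 0 lower, against 10.6% and 22.9% of 7094 genes, with a median log2 ratio of 1.30 (-0.13 over all genes). That class rests on few UMIs: 7 of the 18 passed the filter through the knockout library alone, and of the 11 with at least 10 CPM in both libraries 8 were higher (8.25% of all genes). Isg15 had 12 WT and 103 knockout UMIs, or 14.5 and 109 CPM (ratio 7.56, 4.15 to 15.1). Rsad2 had 0 and 25 UMIs, which makes it at least 7.34-fold higher when the WT is set at 3 counts in the class. The median was the same with Rsad2 at that bound. With every cell weighted equally, 6 of 14 entered members were higher and 1 lower, with a median of 0.50. Without the 5% of cells with the most UMIs 6 of 8 were higher and 0 lower, with a median of 0.83. After thinning 1 of 3 was higher, with a median of 0.41. Ifit1 was at 4.82 and 30.8 CPM (ratio 6.39, 2.24 to 25.01), and Rtp4 at 7.24 and 35.1 CPM (ratio 4.85, 2.01 to 14.1). Slfn5 was at 10.9 and 41.4 CPM (ratio 3.82, 1.82 to 8.96), Ifit3 at 4.82 and 18.1 CPM (ratio 3.74, 1.22 to 15.3), Xaf1 at 14.5 and 43.6 CPM (ratio 3.01, 1.55 to 6.29) and Bst2 at 90.5 and 202 CPM (ratio 2.23, 1.70 to 2.96). The abundant members Ifi27l2a (263 and 380.4 CPM, ratio 1.45, 1.22 to 1.72) and Ifitm3 (521 and 576 CPM, ratio 1.11, 0.972 to 1.26) did not pass 1.5-fold. In the same cells the 10 macrophage markers summed to 942 CPM in WT cells and 1142 CPM in knockout cells, with 9 of 10 higher and none at 0. Macrophage-gated cells hold members at higher levels, and the part of the macrophage RNA in the muscle fibre values was not tested.

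Monocyte-gated cells (57 WT and 172 knockout cells) had the largest share of members higher: 30 of 34 entered, with 0 lower, against 13.9% and 17.6% of 6831 genes, and a median log2 ratio of 1.246 (-0.04 over all genes). All 36 members were above the WT, a count for which the share of all genes is not given. Of the 31 with at least 10 CPM in both libraries, 27 were higher (10.3% of all genes). Isg15 was at 47.7 and 498 CPM (ratio 10.4, 6.47 to 18.0), from 17 and 671 UMIs. Ifi213 was at 19.6 and 123 CPM (ratio 6.27, 2.98 to 15.8), Irf7 at 61.7 and 268 CPM (ratio 4.34, 2.82 to 7.01) and Ms4a4c at 151 and 510.2 CPM (ratio 3.37, 2.55 to 4.53). Ifit2 was at 5.61 and 59.3 CPM (ratio 10.6, 2.83 to 88.8), Ifit3 at 19.6 and 96.4 CPM (ratio 4.91, 2.32 to 12.5) and Dhx58 at 8.42 and 39.3 CPM (ratio 4.67, 1.51 to 23.4), each from at most 7 WT UMIs, which gives the wide intervals. The abundant members had higher values too: Ifi27l2a was at 2272 and 4419 CPM (ratio 1.94, 1.81 to 2.096), Ifitm3 at 3425 and 5137 CPM (ratio 1.4996, 1.41 to 1.59), Bst2 at 238 and 699 CPM (ratio 2.93, 2.35 to 3.71) and Slfn5 at 146 and 293 CPM (ratio 2.01, 1.501 to 2.74). In this gate the 10 neutrophil markers summed to 137 CPM in WT cells and 255 CPM in knockout cells (6 of 10 higher, 3 at 0 in each), and the 10 NK cell markers to 168 and 3.71 CPM (1 of 10 higher, 7 and 8 at 0). The part of such RNA in the monocyte values was not tested.

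In neutrophil-gated cells (58 and 184 cells) 21 of 28 entered members were higher and 0 lower, against 14.5% and 26.6% of 3332 genes, with a median log2 ratio of 1.13 (-0.16 over all genes). All 28 had at least 10 CPM in both libraries (13.8% of all genes filtered that way were higher). The interval of the ratio held 1 for 17 of the 28. Isg15 was at 382 and 1193 CPM (ratio 3.12, 2.24 to 4.49) and Rtp4 at 92.9 and 392.4 CPM (ratio 4.22, 2.17 to 9.39). Slfn5 was at 155 and 363 CPM (ratio 2.34, 1.38 to 4.28) and Rsad2 at 155 and 367 CPM (ratio 2.37, 1.40 to 4.34). Ifitm3 (1549 and 2688 CPM, ratio 1.74, 1.46 to 2.07) and Ifi27l2a (1899.6 and 3076 CPM, ratio 1.62, 1.39 to 1.90) passed 1.5-fold too, and Bst2 (227 and 333 CPM, ratio 1.47, 0.933 to 2.41) did not. The largest neutrophil ratios rest on 2 WT UMIs for Ifit3 (20.6 and 201 CPM, ratio 9.72, 2.61 to 81.6) and on 1 each for 4 other members. These were Cmpk2 (10.3 and 82.1 CPM, ratio 7.96, 1.34 to 323), Usp18 (10.3 and 61.6 CPM, ratio 5.97, 0.984 to 244), Oas2 (10.3 and 57.0 CPM, ratio 5.53, 0.904 to 227) and Oas1a (10.3 and 47.9 CPM, ratio 4.64, 0.746 to 192). Oas3 and Irf9, led by this class, had equal levels in both libraries (ratios 1.00 and 0.995). The neutrophil-gated cells also carried macrophage markers at 2984 CPM in WT cells and 3667 CPM in knockout cells, 5 of 10 higher and none at 0, and the part of this in their values was not tested.

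In dendritic cell-gated cells (164 and 144 cells) 19 of 32 entered members were higher and 1 lower, against 12.4% and 11.9% of 7017 genes, with a median log2 ratio of 0.70 (0.01 over all genes). All 32 had at least 10 CPM in both libraries, where 10.4% of all genes were higher and 9.33% lower. Oas1a was at 12.7 and 46.2 CPM (ratio 3.65, 1.89 to 7.73), Rtp4 at 14.96 and 47.0 CPM (ratio 3.14, 1.70 to 6.26), Ifi204 at 24.2 and 67.1 CPM (ratio 2.78, 1.70 to 4.73) and Isg15 at 74.8 and 196 CPM (ratio 2.61, 1.98 to 3.496). Ifit1 was at 14.96 and 32.7 CPM (ratio 2.19, 1.14 to 4.47). Mx1 was the lower member, at 82.9 and 39.4 CPM (ratio 0.476, 0.322 to 0.697). In the WT library this class led for Mx1, and among knockout cells it did not. Bst2 (267 and 500.1 CPM, ratio 1.87, 1.61 to 2.19), Ms4a4c (97.8 and 186 CPM, ratio 1.90, 1.48 to 2.48) and Ifi27l2a (703 and 1208 CPM, ratio 1.72, 1.56 to 1.89) passed 1.5-fold, and Ifitm3 (1420.2 and 1855 CPM, ratio 1.31, 1.22 to 1.40) and Slfn5 (160.0 and 165 CPM, ratio 1.03, 0.828 to 1.29) did not.

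In T cell-gated cells (156 and 136 cells) 10 of 23 were higher and 1 lower, against 14.3% and 14% of 4987 genes, with a median of 0.57 (0.00). All 23 had at least 10 CPM in both libraries (14% of all genes filtered that way were higher and 13.9% lower). Isg15 was at 126 and 319 CPM (ratio 2.54, 1.80 to 3.62), Irf7 at 53.2 and 135 CPM (ratio 2.53, 1.49 to 4.49) and Ifi213 at 61.6 and 135 CPM (ratio 2.19, 1.33 to 3.74). Rtp4 was at 47.6 and 124 CPM (ratio 2.60, 1.49 to 4.77), and Cmpk2, with 4 and 17 UMIs, at 11.2 and 36.9 CPM (ratio 3.299, 1.08 to 13.5). Zbp1 (92.4 and 143 CPM, ratio 1.55, 1.01 to 2.43) and Ifitm3 (384 and 715 CPM, ratio 1.86, 1.52 to 2.29) passed 1.5-fold too. The abundant members Ifi27l2a (2363 and 2803 CPM, ratio 1.19, 1.09 to 1.30), Bst2 (297 and 424 CPM, ratio 1.43, 1.12 to 1.83) and Trim30a (115 and 154 CPM, ratio 1.34, 0.903 to 2.03) did not. Oas1a was the lower member, with 14 and 9 UMIs (39.2 and 19.6 CPM, ratio 0.499, 0.191 to 1.24), so its interval held 1.

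In NK cell-gated cells (88 and 117 cells) 16 of 21 were higher and 0 lower, against 13% and 17.3% of 4441 genes, with a median of 0.90 (-0.05). Of the 21, 2 passed the filter through the knockout library alone, and 14 of the 19 with at least 10 CPM in both libraries were higher (12.7% of all genes). Isg15 was at 29.0 and 212 CPM (ratio 7.31, 3.42 to 18.7), Ifi35 at 20.7 and 107 CPM (ratio 5.17, 2.07 to 16.6), Rtp4 at 20.7 and 83.0 CPM (ratio 4.01, 1.58 to 13.1) and Xaf1 at 41.4 and 107 CPM (ratio 2.59, 1.29 to 5.73). Ifit3 (8.27 and 67.7 CPM, ratio 8.18, 2.08 to 70.5) and Ifit1 (8.27 and 39.3 CPM, ratio 4.75, 1.14 to 42.2) had 2 WT UMIs each and were those that passed through the knockout alone. Bst2 was at 211 and 397 CPM (ratio 1.88, 1.37 to 2.62), Zbp1 at 53.8 and 103 CPM (ratio 1.91, 1.02 to 3.84), Ifi27l2a at 339 and 552 CPM (ratio 1.63, 1.26 to 2.12) and Trim30a at 86.9 and 142 CPM (ratio 1.63, 0.986 to 2.81). Ifitm3 (335 and 441 CPM, ratio 1.32, 1.01 to 1.72) did not pass 1.5-fold. In this gate the 10 T cell markers summed to 323 and 769 CPM (8 of 10 higher, 1 and 0 at 0). The 10 macrophage markers summed to 703 and 448 CPM (5 of 10 higher, none at 0). Summed members stood at 4326 and 6026 CPM in T cell-gated and 1651 and 3131 CPM in NK cell-gated cells. The part of such RNA in the NK cell values was not tested. In dendritic cell-, T cell- and NK cell-gated cells alike, Isg15 and Rtp4 were at least 2.5-fold higher.

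Pericyte and smooth muscle-gated cells (175 and 208 cells), the mural cells around vessels, had 16 of 23 entered members higher and 0 lower, against 9.08% and 18.5% of 8503 genes, with a median of 0.91 (-0.12). Of the 18 members with at least 10 CPM in both libraries 11 were higher (7.7% of all genes). Isg15 was at 75.4 and 369.5 CPM (ratio 4.90, 3.60 to 6.83), Ifit1 at 8.56 and 51.9 CPM (ratio 6.06, 2.48 to 19.3) and Ifit3 at 17.1 and 59.4 CPM (ratio 3.47, 1.79 to 7.50). Bst2 was at 255 and 569.9 CPM (ratio 2.23, 1.87 to 2.68) and Xaf1 at 42.8 and 105 CPM (ratio 2.44, 1.59 to 3.90). For 4 of the 5 genes Isg15, Ifit1, Ifit3, Bst2 and Xaf1 the ratio was above that in endothelial-gated cells, and for Ifit3 it was 3.47 against 3.57; these differences were not tested. Oas1a was at 8.56 and 26.0 CPM (ratio 3.03, 1.18 to 9.92), Stat2 at 10.3 and 30.4 CPM (ratio 2.96, 1.2497 to 8.53) and Ifi35 at 58.2 and 90.5 CPM (ratio 1.55, 1.06 to 2.35). Ifitm3 (2653 and 3347 CPM, ratio 1.26, 1.19 to 1.34), Slfn5 (137 and 168 CPM, ratio 1.23, 0.949 to 1.61) and Ifi27l2a (812 and 755 CPM, ratio 0.930, 0.833 to 1.04) did not pass 1.5-fold.

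In Schwann cell-gated cells (57 and 124 cells) 8 of 12 were higher and 0 lower, against 17.5% and 17.5% of 5347 genes, with a median of 1.40 (-0.03), and 5 of the 9 with at least 10 CPM in both libraries were higher (16.1% of all genes). Isg15 had 3 and 68 UMIs (22.0 and 134 CPM, ratio 6.12, 2.01 to 30.4), and Rtp4 1 and 53 UMIs (7.32 and 105 CPM, ratio 14.3, 2.46 to 575). Irf7 (7.32 and 55.3 CPM, ratio 7.55, 1.249 to 309) and Ifit1 (7.32 and 47.4 CPM, ratio 6.47, 1.06 to 266) had 1 WT UMI each, and Ifit3 (14.6 and 59.2 CPM, ratio 4.05, 1.03 to 34.9) had 2. Xaf1 was at 36.6 and 130.3 CPM (ratio 3.56, 1.45 to 11.3) and Ifi27l2a at 600.3 and 1147 CPM (ratio 1.91, 1.51 to 2.44). Bst2 (219.6 and 326 CPM, ratio 1.48, 1.00 to 2.27), Ifi35 (58.6 and 61.2 CPM, ratio 1.05, 0.470 to 2.63) and Ifitm3 (1259 and 1197 CPM, ratio 0.951, 0.801 to 1.13) did not pass 1.5-fold. In this gate the 10 neutrophil markers summed to 0 and 148 CPM (4 of 10 higher, 10 and 6 at 0). The 10 monocyte markers summed to 154 and 233 CPM (5 of 10 higher, 7 and 4 at 0). Macrophage markers (754 and 713 CPM, 4 of 10 higher) and the 6 erythroid markers (322 and 45.4 CPM, 0 higher) were lower in sum. The erythroid sum was lower in the knockout library in every other class but endothelial-gated cells (660 and 745 CPM). It was 210 and 16.0 CPM in macrophage-gated and 485 and 27.4 CPM in neutrophil-gated cells. The part of such RNA in the Schwann cell values was not tested.

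Classes can hold different cells in each library, so the members were also read within subtypes gated by further markers. Within macrophages, resident cells (markers such as Cd163 and Lyve1) were 23.7% of the WT and 5.83% of the knockout class, lipid-associated cells (Gpnmb, Spp1) 20.7% and 27.4%, Cx3cr1 class II cells 29.6% and 33.6%, and the other macrophage-gated cells 26.1% and 33.1%. The members higher by 1.5-fold were 20 of 34 in resident cells (6.77% of all genes), 21 of 32 in lipid-associated cells (2.75%), 29 of 35 in Cx3cr1 class II cells (3.52%) and 27 of 35 in the others (3.57%), with 0 lower in each. With at least 10 CPM in both libraries, in the same order, 19 of 33 (5.69% of all genes), 20 of 31 (2.43%), 28 of 34 (3.24%) and 27 of 35 (3.25%) were higher. Isg15 in the 3 named subtypes was at 72.1 and 208 CPM (ratio 2.88, 2.43 to 3.41), 64.0 and 155 CPM (ratio 2.42, 2.19 to 2.68) and 78.9 and 282 CPM (ratio 3.58, 3.24 to 3.97). Ifi27l2a differed between subtypes in level and in direction. It was highest in resident cells, at 6443 and 5306 CPM (ratio 0.824, 0.800 to 0.847). It was at 1230.5 and 2027 CPM (ratio 1.65, 1.61 to 1.69) in lipid-associated cells and at 1756 and 2789 CPM (ratio 1.59, 1.55 to 1.63) in Cx3cr1 class II cells. In the other macrophage-gated cells it was at 3040.2 and 2814 CPM (ratio 0.925, 0.906 to 0.945), and in the whole class the ratio was 0.909. Ifi27l2a was chosen for this description after its values were seen.

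Within fibroblasts, 8 of 25 members were higher in Pi16 cells (4.75% of all genes), 17 of 29 in Cxcl14 cells (5.58%), 18 of 24 in activated cells marked by Tnc and Postn (4.81%) and 11 of 26 in the others (6.13%), and 0 were lower. With at least 10 CPM in both libraries, 8 of 25 (3.88% of all genes), 12 of 22 (4.85%), 16 of 22 (4.17%) and 9 of 24 (5.52%) were higher. Isg15 was at 45.5 and 73.7 CPM (ratio 1.62, 1.28 to 2.04) in Pi16 cells, 45.5 and 198 CPM (ratio 4.35, 3.73 to 5.09) in Cxcl14 cells and 74.5 and 290.3 CPM (ratio 3.90, 3.53 to 4.31) in activated cells. The Pi16 cells thus had the smallest Isg15 ratio of these 3, and the difference between subtypes was not tested. Within endothelium, 15 of 24 were higher in arterial (14.4% of all genes), 20 of 32 in capillary (8.55%), 15 of 21 in venous (17.6%) and 12 of 29 in the other endothelial-gated cells (8.99%), which were 28.6% of the WT and 37.5% of the knockout class, with 0 lower. With at least 10 CPM in both libraries, 15 of 24 (14% of all genes), 19 of 29 (7.03%), 13 of 19 (16.7%) and 10 of 27 (7.48%) were higher. Isg15 was at 195 and 727 CPM (ratio 3.72, 2.78 to 5.06) in arterial and 216 and 778 CPM (ratio 3.61, 3.05 to 4.29) in capillary cells. In venous cells (26 WT and 40 knockout cells) it was at 43.8 and 808 CPM (ratio 18.4, 7.80 to 57.3). Capillary cells held the largest summed level of members in both libraries, 7740 and 12833 CPM.

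The levels above are sums over cells, and the next question was how the members' UMIs were spread over cells. Each cell was thinned to 1000 UMIs, and the 3 members with the most UMIs (Ifitm3, Ifi27l2a and Bst2) were left out of the sum, which leaves 33 members. In macrophage-gated cells the mean was 1.496 member UMIs per 1000 in WT cells and 2.87 in knockout cells. The share of macrophage-gated cells with at least 5 was 7.04% (6.31 to 7.81%) and 19.1% (17.7 to 20.6%), and the share with 0 was 40.8% and 20.2%. Fewer cells without a member UMI and more with 5 or above were thus seen in the knockout library. The 10% of macrophage-gated cells with the most member UMIs held 48.3% of them in WT cells and 38.1% in knockout cells. In endothelial-gated cells 8.63% and 22.7% had at least 5, and in fibroblast-gated cells 2.06% and 4.60%. In monocyte-gated cells it was 12.5% (5.18 to 24.1%) and 42.6% (35.0 to 50.4%). In satellite cell and myoblast-gated cells 0.742% and 0.482% had at least 5, and the intervals overlapped (0.299 to 1.52% and 0.177 to 1.05%).

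**Figure D4:**
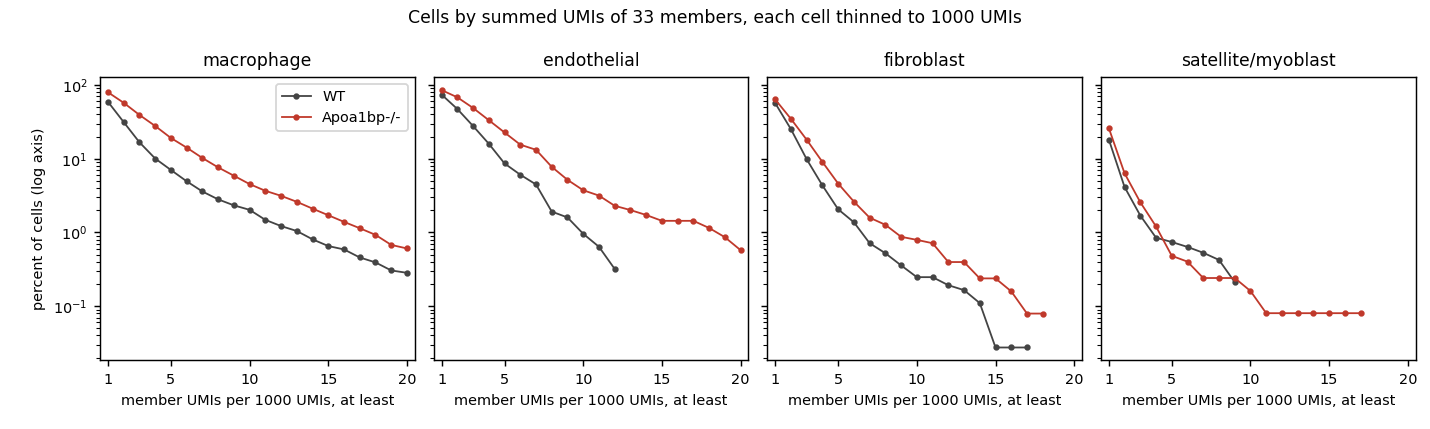
Percent of cells (log axis) with at least the given number of UMIs of 33 members, after thinning each cell to 1000 UMIs, in 4 marker-gated classes, WT library in dark grey and knockout library in red. Over the plotted range, up to 20 UMIs, the knockout curve lies at or above the WT curve in macrophage-, endothelial- and fibroblast-gated cells, and it lies below the WT curve from 5 to 8 UMIs in satellite cell and myoblast-gated cells.

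For Isg15 alone, the thinned share of cells with a UMI was 5.01% (4.40 to 5.68%) in WT and 16.5% (15.2 to 18.0%) in knockout macrophage-gated cells (15.4% and 47.3% without thinning). In endothelial-gated cells it was 14.7% (10.96 to 19.1%) and 35.3% (30.3 to 40.6%) (32.5% and 75.5% without thinning), and in neutrophil-gated cells 22.0% (10.6 to 37.6%) and 48.4% (40.5 to 56.4%). The intervals of the libraries did not overlap in these classes. No class is known to lack Isg15, and the lowest shares in both libraries are given for comparison. Muscle fibre-gated cells (166 and 195 cells deep enough) were at 1.20% (0.146 to 4.28%) and 3.08% (1.14 to 6.58%). Satellite cell and myoblast-gated cells, median depths 5435 and 8735 UMIs, were at 1.69% (0.972 to 2.74%) and 3.93% (2.92 to 5.17%). For thinning, 224 WT and 78 knockout macrophage-gated cells were too shallow, as were 65 and 20 endothelial-gated cells.

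Cxcl10, a chemokine induced by both interferon types and no member, marked the macrophages with the highest member levels. The share of macrophage-gated cells with 3 or more Cxcl10 UMIs was 1.66% in the WT library (1.32 to 2.06%, 80 cells) and 5.72% in that of the knockout (4.90 to 6.63%, 165 cells). In the WT library the median member stood 4.52 times higher in these cells than in cells with 0 Cxcl10 UMIs, and in the knockout library 2.84 times. Rsad2 differed most, with 19.1 CPM in WT cells without and 655 CPM in WT cells with at least 3 Cxcl10 UMIs, and 28.5 and 603 CPM in the knockout library. Ifi27l2a differed least (2845 and 3192 CPM in the WT). Between the genotypes, 0 of 36 members were at least 1.5-fold higher and 5 lower in cells with 3 or more Cxcl10 UMIs, against 11.7% higher and 13.9% lower of 6750 genes, with a median log2 ratio of 0.11 (-0.04 over all genes). As a share of the 36 members, the 5 lower lie near the 13.9% of all genes, so they are not read as particular to the members. The 5 were Ifi44 (89.4 and 22.4 CPM), Ifit1 (569 and 303 CPM), Oasl1 (173 and 92.9 CPM), Irf9 (96.7 and 61.0 CPM) and Cmpk2 (246 and 161 CPM), while Isg15 was at 849.9 and 951 CPM. In cells with 0 Cxcl10 UMIs, 17 of 32 members were at least 1.5-fold higher in the knockout library and 0 lower, against 2.23% and 8.47% of 7187 genes, with a median log2 ratio of 0.63 (-0.14 over all genes). There Isg15 was at 49.97 and 157 CPM, while Ifit1 (22.9 and 25.4 CPM) and Irf9 (43.9 and 45.6 CPM) were close. The summed level of members was 6130 and 7160 CPM with 0 Cxcl10 UMIs and 14207 and 14599 CPM with 3 or more. Genes named here were chosen after their values were seen, and the difference between the 2 sets of cells was not tested. Cells were deeper in the knockout library (median UMIs 4272 and 6580 in cells with no Cxcl10 UMI), and the part of depth in this split was not tested.

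Other genes of the pathway were read in the same way. None of the 8 type I and III interferon ligands examined entered in any class, and Ifnb1 had 3 UMIs in WT cells and 1 in knockout cells over all kept cells. The 4 receptor and kinase genes lay within 1.5-fold in macrophage- and endothelial-gated cells, as did those that entered in fibroblast-, satellite cell and myoblast-, dendritic cell- and monocyte-gated cells. In the other classes 1 was higher and 2 lower of 3 entered in neutrophil-gated cells, 1 higher and 1 lower of 3 in muscle fibre-gated cells, 1 was lower each in Schwann cell-, T cell- and pericyte and smooth muscle-gated cells, and 1 was higher in NK cell-gated cells. Irf8, a transcription factor of myeloid and lymphoid cells that was chosen after its values were seen, was lower in endothelial-gated cells, at 36.0 and 21.4 CPM (ratio 0.594), and in fibroblast-gated cells, at 20.1 and 12.3 CPM (ratio 0.616). The 10 macrophage markers summed to 1107 and 647 CPM in endothelial-gated cells and to 875 and 622 CPM in fibroblast-gated cells (2 and 1 of 10 higher). The part of macrophage RNA in the Irf8 values was not tested. Of 8 upstream sensing genes, 6 entered in macrophage-gated and 3 in endothelial-gated cells, and 0 passed 1.5-fold in either direction, as in fibroblast-, T cell- and neutrophil-gated cells. Of those that entered elsewhere, 1 was lower each in dendritic cell-, monocyte-, Schwann cell-, pericyte and smooth muscle- and satellite cell and myoblast-gated cells and 1 was higher in NK cell-gated cells. Of the 11 genes of interferon gamma and its induced set, 6 were higher, 3 within 1.5-fold and 0 lower in endothelial-gated cells (5.88% of all genes higher). The counts were 6, 2 and 0 in fibroblast-gated (5.17%), 5, 2 and 0 in pericyte and smooth muscle-gated (9.08%) and 5, 0 and 0 in neutrophil-gated cells (14.5%). In macrophage-gated cells they were 2, 5 and 2 (2.45% of all genes higher, 8.19% lower). Monocyte-gated cells had 3 higher and 1 lower, dendritic cell-gated cells 3 and 2, and T cell-gated cells 1 and 1. In the remaining classes at most 1 was higher and 0 lower. Cxcl10, part of that set, was at 41.7 and 115 CPM (ratio 2.77) in macrophage-gated and 8.17 and 37.2 CPM (ratio 4.55) in endothelial-gated cells. The lower 2 in macrophages, named after their values were seen, were Cxcl9 (24.3 and 8.41 CPM, ratio 0.347) and Gbp7 (42.2 and 27.3 CPM, ratio 0.647).

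Some member values depend on how reads were assigned. Besides the pairs named above, 13.2% of the 60-base stretches of Rtp4 occur in Gm45338 and 11.4% of those of Slfn8 in other genes, mostly Slfn10-ps, so these values are uncertain to that degree. Irf7, Irf9, Rtp4, Ifi35, Dhx58, Slfn5 and Oasl1 are among the 12 members that overlap another gene in the GENCODE annotation, and no source used here says whether counting used the strand. Irf9, Rtp4 and Parp14 overlap a gene on the same strand (Rnf31, Gm45338 and Gm49730), which counting by strand would not separate. A higher level per class cannot be told apart from a larger share of cells in a high state within it, except where the per-cell values above speak to it.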

How the data were processed

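Single-cell RNA-seq of adductor muscle was deposited as 1 filtered matrix per genotype. The deposited values are whole-number counts of UMIs per gene and cell, not normalized by the authors. Cell Ranger 5.0.0 is named per the file headers and Cell Ranger 2.1.1 per the submitters' processing notes, and which made the matrices was not settled. For the build and the gene annotation, the sources used here name none.

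Cells with at least 200 genes and at most 10% mitochondrial UMIs were kept. A cell joined a class when at least 3 of its markers were positive and that lineage had at least 2 times the positive markers of any other. A marker was positive with at least 1 UMI and a level above that expected from its mean share. Cells meeting the markers of more than 1 lineage (14.8% of WT, 13.7% of knockout) were left out, and no doublet caller was run. Classes needed 50 cells in each library, and subtypes 20.

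Counts were summed per class and divided by the class total (CPM). Members entered a genotype comparison at a mean of at least 10 CPM and at least 20 UMIs. Log2 ratios used a prior count of 0.5, and a member was higher or lower at 1.5-fold. Intervals are exact at 95% (Poisson for levels, conditional binomial for ratios, Clopper-Pearson for shares), and a count of 0 was set at 3 counts. No test between genotypes was possible with 1 library each, so no p-value is given. The code was tested on simulated data. Python 3.11.15, numpy 2.4.6, scipy 1.17.1, pandas 2.3.3 and matplotlib 3.10.9 were used.

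The leading class is given for every member. Full values in a class are given for the 6 entered members with the highest mean CPM and the 6 with the largest ratio in either direction, and the other members by range and count. The members, gene lists and rules were chosen with earlier results of these data known. Alternatives varied the gate, cell weights, depth, scaling, filters, fold and motif. Those asking for at least 10 CPM in both libraries, for genes with 1 promoter window, for classes of at least 100 cells and for macrophages split by Cxcl10 UMIs were chosen after seeing the data. Promoter windows came from RefSeq (GRCm38.p6), and 10 members had no entry: Oas2, Mx1, Mx2, Usp18, Rtp4, Ifi27l2a, Dhx58, Zbp1, Parp14 and Ifi204. Results on 1 gene of the pathway that is no member are not reported here.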

Additional observations from a re-analysis of the deposited data

Results flagged for a closer look

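Oas1a, an oligoadenylate synthetase, was lower in knockout T cell-gated cells (ratio 0.499) and at least 1.5-fold higher in the 7 other classes it entered. Mx1, an antiviral GTPase, was lower in knockout dendritic cell-gated cells (ratio 0.476) and at least 1.5-fold higher in 3 other classes. In both cases the classes went in opposite directions, and the difference between classes was not tested, since each genotype is 1 library. The T cell value of Oas1a rests on 14 WT and 9 knockout UMIs, and its interval held 1.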

How the results depend on the processing

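Counts and medians of members by class were recomputed under the alternatives only in the 5 classes with at least 200 cells in each library. In the other classes, monocyte- and neutrophil-gated cells among them, members were recounted only with at least 10 CPM in both libraries. Of 249 values recomputed under an alternative, 201 moved by less than the limits set for them. Another 15 were shares of cells with an Isg15 UMI, which were lower after thinning to 500 UMIs and higher after thinning to 2000 UMIs, as 2.87% and 8.87% of WT and 9.95% and 24.4% of knockout macrophage-gated cells. The others follow, and the cause was not tested except where fewer genes entered. The share of all genes stands in brackets. With a 2-fold limit, 9 of 29 members were higher in endothelial- (1.26%), 6 of 26 in fibroblast- (1.02%), 11 of 34 in macrophage- (0.487%) and 2 of 14 in satellite cell and myoblast-gated cells (1.17%). With the limit set at 25% above the WT, or its inverse, 20 of 26 were higher (15.4%) and 1 lower (27.0%) in fibroblast-gated cells, and 1 of 14 was lower in satellite cell and myoblast-gated cells (22.3%). With a mean of at least 2 CPM, 19 of 35 members were higher in fibroblast- (6.76%) and 14 of 32 in satellite cell and myoblast-gated cells (7.50%), and 1 was lower in satellite cell and myoblast- (12.6%) and 1 of 34 in endothelial-gated cells (16.99%). With a mean of at least 50 CPM fewer members entered, and 10 of 19 were higher in endothelial-, 4 of 8 in fibroblast-, 14 of 18 in macrophage-, 2 of 4 in muscle fibre- and 1 of 3 in satellite cell and myoblast-gated cells (2.96% to 7.45%). The median log2 ratio was then 0.94 in macrophage-gated and 0.0036 in satellite cell and myoblast-gated cells. Asking for at least 10 CPM in both libraries left 8 of 11 higher in muscle fibre-gated cells (8.25%). Thinning to 1000 UMIs left 1 of 3 higher in muscle fibre-gated cells (10.95%) and made 1 of 24 lower in endothelial-gated cells (20.52%). Weighting cells equally gave a median log2 ratio of 0.31 in fibroblast-gated cells, and 6 of 14 higher (8.33%) and 1 lower (45.3%) in muscle fibre-gated cells, where Trim30a (-0.65), Ifi204 (-0.10) and Parp14 (-0.0084) changed sign on the log2 scale. Without the 5% of cells with the most UMIs, 6 of 8 were higher in muscle fibre-gated cells (5.84%), and satellite cell and myoblast-gated cells had a median of 0.21 with 1 of 15 lower (10.3%). Centred on the median gene, the macrophage median was 0.93, and without cells holding a Cxcl10 UMI it was 0.63. The narrower motif, with C as the first middle base, stood in 34.6% of matched members. The same class led in both libraries for 20 to 24 members under other gates, weights and depths, and for 29 among classes of at least 100 cells. Under those other gates, weights and depths, 29 to 33 of the 36 members kept their leading class in WT cells and 28 to 34 in knockout cells.

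No paired analysis was possible because each genotype has 1 library and the labels carry no replicate numbers. Depth limits the WT neutrophil-, Schwann cell- and NK cell-gated values most, since a single UMI there is a large step in CPM.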
